A study of Mus musculus with 3 samples.

Results

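Potassium, calcium, sodium, chloride and TRP cation channel genes were taken from a mouse kidney array study by symbol, with a value on all 3 arrays required. The symbols were those of pore and auxiliary potassium channel subunits (Kcn), voltage-gated calcium channel subunits (Cacn), voltage-gated and epithelial sodium channel subunits (Scn and Scnn1), the chloride channel and exchanger family (Clcn) and the TRPC, TRPM and TRPV channels. The platform annotation held 116 such genes on 137 probes, and 104 of them, on 122 probes, had a value on every array, out of 14047 genes with one. Of the other 12, 10 had values on 2 arrays, 1 on a single array and 1 on none, and these 12 were not tested. Array 2 lacked a value for 10 of the 12, and of the 9 with values on arrays 1 and 3, array 1 ran from -1.68 for Kcnmb1 to 1.88 for Trpc6 and array 3 from -0.93 for Scn11a to 1.65 for Kcnab3. The potassium channel beta subunit gene Kcnab2 had -4.95 on array 2 and -0.026 on array 3, and the calcium channel gene Cacna1i had 0.64 on array 2 alone.

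Each of the 3 arrays set metanephroi of 11.5 days post coitum (dpc) against metanephric mesenchyme of 10.5 dpc, both microdissected from CD1 mouse embryos of pooled sex with no treatment or mutation in the labels. The metanephric mesenchyme is the embryonic tissue from which the nephrons of the kidney arise, and the metanephros of the later stage also holds the branching ureteric bud. The dye order was red/green for arrays 1 and 2, and array 3 had the reverse. The labels do not say whether separate dissections were used, so every spread and p-value below measures only the difference between arrays, which may be technical. Values are log2 ratios of the channels, with a numerator that no label names. A positive ratio means more RNA in one tissue and a negative ratio more in the other, and neither side can be named. The labels also do not say whether array 3 was already turned to the direction of arrays 1 and 2, and it was kept as deposited. If it was not, its sign stands for the other tissue and the means over 3 arrays mix both directions, and turning it brings the mean of Kcnj8, described below, to 0.37 where it is otherwise 1.37.

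Ion channels are membrane proteins that let ions pass down their electrochemical gradients. Potassium channels set the resting potential of a cell, calcium channels couple voltage to calcium entry, and voltage-gated sodium channels carry the action potential of nerve and muscle. In the mature kidney, epithelial sodium channels, inwardly rectifying and tandem pore potassium channels and Clcn proteins move salt across the tubule wall, while ATP-sensitive and calcium-activated potassium channels regulate the tone of vessels. Many voltage-gated subunits are best known from neurons and muscle.

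No channel gene passed Benjamini-Hochberg adjustment over all genes in limma, nor did any other gene, so 0 of 104 and 0 of 14047 (0%) had an adjusted p under 0.05. At an unadjusted p under 0.05 there were 22 channel genes, 12 positive and 10 negative. These are 21.2% of the channel genes, against 19.6% of all genes tested. By side, 11.5% of channel genes were positive at that threshold against 9.89% of all genes, and 9.62% were negative against 9.69%. All 3 arrays shared a sign in 42 channel genes, or 40.4%, against 45.5% of all genes. Of these, 24 were positive (23.1% of channel genes, against 22.9% of all genes) and 18 were negative (17.3% against 22.5%). A positive mean was found for 49 channel genes, 47.1% against 49.8% of all genes. The median ratio was -0.041 over channel genes and -0.0019 over all genes, and the median size of a ratio was 0.31 in both. These shares lie near the background, apart from the lower share that was negative on every array, and no list-wide difference is read from them.

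The 22 genes all had 1 sign on every array, so turning array 3 sets it against the other arrays in each of them, and the 0 of 22 left then follow from that choice. The threshold was kept by 6 of the 22 without array 1, by 13 without array 2 and by 13 without array 3. How many of all the genes under the threshold kept it was not computed. Counting every channel gene under the threshold in these fits, there were 8, 14 and 21 of 104 without arrays 1, 2 and 3. Over all genes the share under the threshold in the same fits was 8.23%, 10.3% and 21%, against 19.6% with all 3 arrays.

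**Figure D1:**
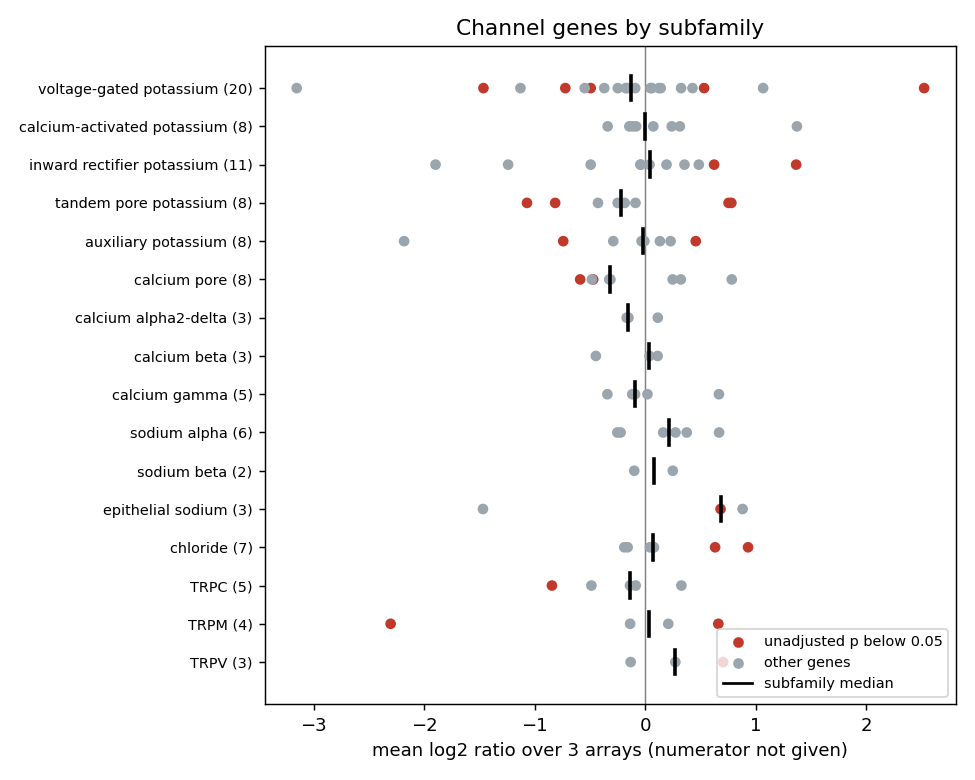
Mean log2 ratio over 3 arrays (horizontal axis, numerator not given) of the 104 channel genes, by subfamily with the number of genes in parentheses. Points are genes, red where the unadjusted limma p was under 0.05, and black bars are subfamily medians, which run from -0.32 for calcium channel pores to 0.68 for epithelial sodium channels.

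The promoters of the leading genes on each side are shown first, because these genes head the ratios described below. They are the RefSeq windows of 300 bases at the start site (GRCm38.p6), most of each window lying upstream, for the 2 genes per sign with the smallest unadjusted p, and capitals mark the letters of a TATA box (TATAAA), a GC box (GGGCGG) or a CCAAT box (CCAAT) on either strand. Kcnj8 lies at chr6:142571565-142571864 on the minus strand, Clcn2 at chr16:20716587-20716886 on the minus strand, Kcnk5 at chr14:20181733-20182032 on the minus strand and Kcnk7 at chr19:5704221-5704520 on the plus strand.
Kcnj8: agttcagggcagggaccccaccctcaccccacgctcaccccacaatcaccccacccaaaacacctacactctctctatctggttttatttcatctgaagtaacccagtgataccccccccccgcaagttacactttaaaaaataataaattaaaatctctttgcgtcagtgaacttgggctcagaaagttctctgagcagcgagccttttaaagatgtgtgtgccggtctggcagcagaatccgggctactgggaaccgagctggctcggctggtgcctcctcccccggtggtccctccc
Clcn2: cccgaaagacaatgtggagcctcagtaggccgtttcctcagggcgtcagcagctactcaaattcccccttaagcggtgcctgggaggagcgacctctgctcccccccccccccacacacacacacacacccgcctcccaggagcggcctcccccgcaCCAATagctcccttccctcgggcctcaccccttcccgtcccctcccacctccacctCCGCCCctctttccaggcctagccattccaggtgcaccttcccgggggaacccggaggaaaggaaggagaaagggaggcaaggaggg
Kcnk5: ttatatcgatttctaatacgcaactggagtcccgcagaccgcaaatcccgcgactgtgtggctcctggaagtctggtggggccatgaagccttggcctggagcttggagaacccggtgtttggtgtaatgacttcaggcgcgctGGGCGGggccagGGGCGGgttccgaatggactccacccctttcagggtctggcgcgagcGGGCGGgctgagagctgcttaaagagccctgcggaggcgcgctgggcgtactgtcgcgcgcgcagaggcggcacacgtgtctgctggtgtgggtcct
Kcnk7: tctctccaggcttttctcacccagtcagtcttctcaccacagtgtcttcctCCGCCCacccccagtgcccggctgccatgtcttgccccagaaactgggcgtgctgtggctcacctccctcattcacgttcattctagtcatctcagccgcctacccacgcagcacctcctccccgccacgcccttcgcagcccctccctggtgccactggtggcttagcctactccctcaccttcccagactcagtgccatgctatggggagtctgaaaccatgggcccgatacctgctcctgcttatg
The Kcnk5 window held 3 GC boxes and 26 CpG dinucleotides, and that of Kcnj8 held no match to the 3 motifs and 9 CpGs. Clcn2 had 1 GC box, 1 CCAAT box and 13 CpGs, and Kcnk7 had 1 GC box and 10 CpGs. No common arrangement of these motifs was seen among the 4 windows. A window was matched for 86 of the 104 channel genes, taking the first start site listed for a gene. Of the 86 channel gene windows 47.7% held a GC box, 24.4% a CCAAT box and 5.81% a TATA box, against 53.6%, 38.4% and 10.5% of the 10965 windows of all genes tested. The median CpG count was 9 in the 11 matched genes with a positive ratio and an unadjusted p under 0.05, 10 in the 9 with a negative one and 10 in the 66 others, against 17 over the windows of all genes tested.

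Among inwardly rectifying potassium channels, Kcnj8 headed the channel genes by unadjusted p. It encodes the pore subunit of the ATP-sensitive potassium channel of smooth muscle and pericytes. Its log2 ratio was 1.37, 1.23 and 1.50 on arrays 1, 2 and 3, so the 3 arrays lay close together in both dye orders. The mean was 1.37 ± 0.13 (SD, n = 3; 95% confidence interval 0.96 to 1.77), a 2.58-fold difference, with an adjusted p of 0.149 in limma. Kcnj12, which encodes a strong inward rectifier of the Kir2 group, had 0.44, 0.83 and 0.60, with a mean of 0.62 ± 0.19 and an adjusted p of 0.182. Both genes were positive on every array.

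The other inward rectifiers had wider spreads or means near 0. Kcnj1, which encodes the ROMK channel that secretes potassium in the distal nephron, had -0.81, -0.13 and -0.54, negative on every array, with a mean of -0.49 ± 0.34. Kcnj9, a G protein-gated channel gene, had -0.22, -2.71 and -0.79, and array 2 alone lay beyond -1. Kcnj11, the ATP-sensitive channel pore of pancreatic beta cells, had 0.49 ± 0.66. The tubule channel genes Kcnj16 and Kcnj15 had 0.19 ± 0.22 and 0.040 ± 0.21, with arrays on both sides of 0. Of the 12 inward rectifier genes on the array 11 were measured on all 3, 6 with a positive and 5 with a negative mean, and their median was 0.040.

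The 8 tandem pore potassium channel genes, which carry background potassium currents, lay on both sides. Kcnk5 encodes an alkaline-activated channel of the proximal tubule. Its ratio was -1.19, -0.95 and -1.06 on arrays 1 to 3, with a mean of -1.07 ± 0.12 (95% confidence interval -1.47 to -0.67), a 2.10-fold difference at an adjusted p of 0.149. Kcnk7, whose product gives no current of its own in cells, had -0.79, -0.78 and -0.88, with a mean of -0.81 ± 0.056 and an adjusted p of 0.157. The arrays of each of these genes differed by far less than their distance from 0.

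Kcnk2 and Kcnk10 encode the related mechanically gated channels TREK-1 and TREK-2, and both were positive on every array. Kcnk2 had 0.93, 1.08 and 0.33, so array 3 was the lowest, with a mean of 0.78 ± 0.40 and an adjusted p of 0.197. Kcnk10 had 0.29, 0.98 and 1.00, so array 1 was the lowest, with a mean of 0.75 ± 0.41 and an adjusted p of 0.204. The remaining tandem pore genes were nearer to 0, among them Kcnk1 at -0.18 ± 0.13. In this subfamily 6 of 8 means were negative and the median was -0.22. Kcnk5 and Kcnk16, which are neighbours in the RefSeq gene order, had -1.07 and -0.25.

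**Figure D2:**
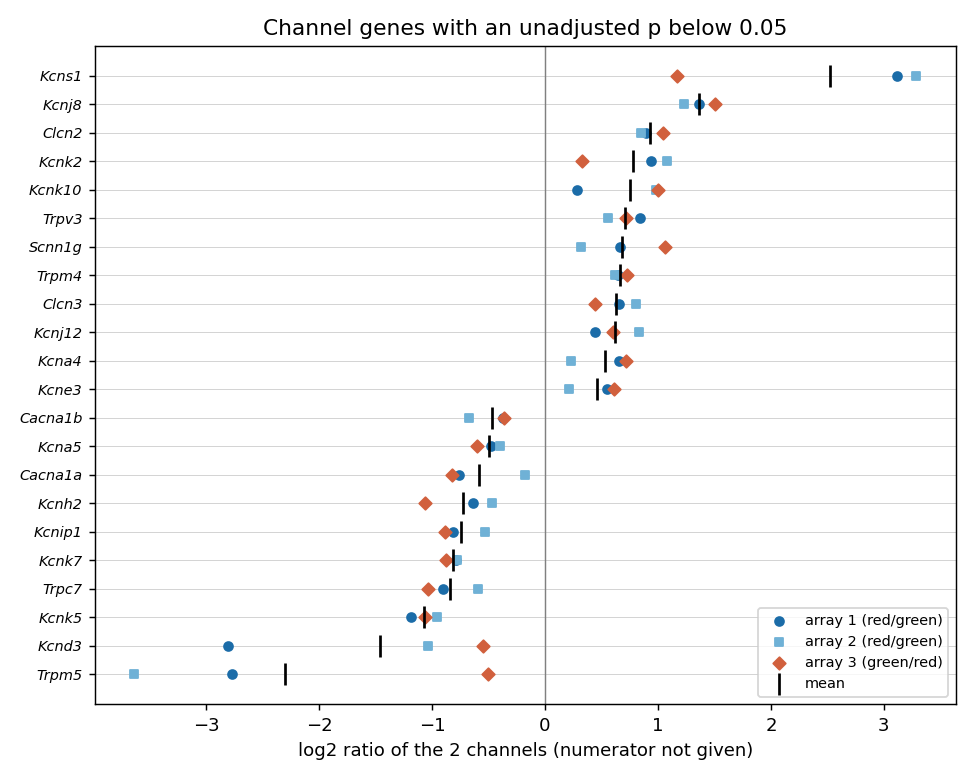
Log2 ratio on each array (horizontal axis, numerator not given) of the 22 channel genes with an unadjusted limma p under 0.05, ordered by their mean. Symbols are arrays and black bars are means; Kcnj8, Clcn2, Kcnk5 and Kcnk7 have 3 arrays close together, while Kcns1, Kcnd3 and Trpm5 spread over more than 2 log2 units.

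Voltage-gated potassium channel alpha subunits held the widest range of means, running down to -3.15 for Kcna3 and up to 2.52 for Kcns1. Kcns1 encodes a subunit that is silent alone and modifies channels of the Kv2 group. It had 3.11, 3.29 and 1.17 on arrays 1 to 3, all positive, but array 3 was about 2 log2 units below the others. Its mean was 2.52 ± 1.17 with an adjusted p of 0.164. Kcnd3, the Kv4.3 gene of transient outward currents, had -2.81, -1.04 and -0.55, with a mean of -1.46 ± 1.19 and an adjusted p of 0.254. Its interval, from -2.92 to -0.0067, nearly reached 0.

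Smaller and steadier ratios were seen for Kcnh2 and Kcna5. Kcnh2, which encodes the ERG channel of cardiac repolarisation, had -0.64, -0.47 and -1.06, with a mean of -0.72 ± 0.31 and an adjusted p of 0.184. Kcna5, the Kv1.5 gene, had -0.48, -0.40 and -0.60, with a mean of -0.49 ± 0.10 and an adjusted p of 0.203. Kcna4, the Kv1.4 gene, lay on the other side at 0.66, 0.23 and 0.72, with a mean of 0.53 ± 0.27 and an adjusted p of 0.230. Kcnq1, which forms the slow cardiac current with Kcne1, had a mean of 0.12 ± 0.30. Its 2 probes with a value on every array had means of -0.020 and 0.27. A further Kcnq1 probe, left out of the mean, had -1.24 on array 1 and 0.75 on array 3. Of the 22 genes of this subfamily 20 were measured on all arrays, 9 with a positive and 11 with a negative mean, and the median was -0.13.

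The group of calcium-activated potassium channel genes was formed by symbol. It also held the beta subunit genes Kcnmb2 and Kcnmb4, which are not pores, and Kcnu1. It gave no gene under an unadjusted limma p of 0.05 among 8 measured, against 19.6% of all genes. Kcnma1, the gene of the large-conductance channel, had a mean of 1.37 ± 1.49 that rested on 1 probe and mostly on 1 array. That probe had 0.60, 1.69 and 6.13 on arrays 1 to 3, whereas the other Kcnma1 probe had -0.11, -0.050 and -0.0145. Of the small- and intermediate-conductance channels, Kcnn3 had -0.34 ± 0.36 and Kcnn4 had -0.082 ± 0.90, and in each array 3 lay on the other side of 0 from arrays 1 and 2. The median of the 8 was -0.0039.

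Auxiliary potassium channel subunits are not pores, but alter the gating or transport of pore subunits. Kcnip1, a calcium-binding partner of Kv4 channels, had -0.81, -0.53 and -0.88, with a mean of -0.74 ± 0.19 and an adjusted p of 0.166. Kcne3, a partner of Kcnq1 in epithelia, had 0.55, 0.21 and 0.61, with a mean of 0.46 ± 0.22 and an adjusted p of 0.252. Both kept their sign on every array, in contrast to Kcne1, which is described with the genes of opposed arrays below. Of the 11 genes of this class, counted without the Kcnmb genes, 8 were measured on all arrays and their median was -0.020.

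Calcium channel genes were 19 in number, with 8 positive and 11 negative means and a median of -0.12. At an unadjusted p under 0.05 there were 0 on the positive side, against 9.89% of all genes, and 2 on the negative side, which is 10.5% against 9.69% of all genes. The 2 genes code for pores of presynaptic channels. Cacna1b, the N-type channel gene, had -0.37, -0.67 and -0.37, with a mean of -0.47 ± 0.18 and an adjusted p of 0.229. Cacna1a, the P/Q-type gene, had a mean of -0.59 ± 0.36 and an adjusted p of 0.244, but its 2 probes differed. One had -1.38, -0.80 and -1.43, negative on every array, and the other had -0.15, 0.44 and -0.22, so the gene's value rests on the first.

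The L-type pore genes gave no settled side. Cacna1c, the L-type channel of heart and smooth muscle, had 0.57, 1.96 and -0.18. Cacna1d had a mean of -0.48 ± 0.78 from probes with means of 0.21 and -1.17. The T-type genes Cacna1g and Cacna1h had 0.25 ± 0.051 and 0.32 ± 0.32, and of the 2 only Cacna1g was positive on every array. Among genes with the other Cacn symbols, those of the beta subunits, which set trafficking and gating of the pore, ran from Cacnb2 at -0.45 ± 0.48 to Cacnb4 at 0.11 ± 0.13. The 3 Cacnb4 probes with a value on every array had means of -0.11, 0.56 and -0.11. A further Cacnb4 probe, left out of the mean, had 0.72 on array 1 and 1.34 on array 3. Cacnb1 had 0.039 ± 0.54. The alpha2-delta genes ran from Cacna2d1 at -0.17 ± 0.66 to Cacna2d3 at 0.11 ± 0.12, and the gamma genes from Cacng6 at -0.34 ± 0.20 to Cacng4 at 0.67 ± 1.53.

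Epithelial sodium channel genes encode the alpha, beta and gamma subunits of the channel that takes up sodium in the collecting duct. The gamma gene Scnn1g had 0.67, 0.32 and 1.06 on arrays 1 to 3, with a mean of 0.68 ± 0.37 and an adjusted p of 0.215. The beta gene Scnn1b had 0.38, 0.55 and 1.71, with a mean of 0.88 ± 0.73 and an adjusted p of 0.274. These genes are neighbours in the RefSeq gene order, and both were positive on every array with array 3 the highest. The alpha gene Scnn1a, which lies elsewhere, had -3.39, -4.39 and 3.38, and so did not share this pattern. Turned the other way, array 3 would bring the means of Scnn1g and Scnn1b to -0.027 and -0.26.

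Of the 8 voltage-gated sodium channel genes measured 0 had the same sign on every array, against 45.5% of all genes. Alpha subunit means ran from Scn3a at -0.25 ± 0.42 to Scn10a at 0.67 ± 1.28, and those of the beta subunits were -0.099 ± 0.56 for Scn3b and 0.25 ± 0.47 for Scn2b. Scn7a, which encodes a channel that responds to sodium concentration, had probes with means of -0.67 and 0.23. Among neighbouring genes of the alpha subunit cluster, Scn1a and Scn9a had 0.28 and 0.16, Scn9a and Scn7a had 0.16 and -0.22, and Scn3a and Scn2a had -0.25 and 0.38. Over all channel genes 11 pairs were direct neighbours among protein-coding genes, and their means were on the same side in 6 pairs and on opposite sides in 5.

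Clcn proteins are chloride channels of the surface membrane or exchangers of endosomes and lysosomes, and 5 of 7 measured members had a positive mean. Clcn2, a widely expressed chloride channel, had 0.90, 0.85 and 1.05, with a mean of 0.93 ± 0.10 (95% confidence interval 0.54 to 1.32), a 1.91-fold difference at an adjusted p of 0.153. Clcn3, an endosomal exchanger gene, had 0.65, 0.80 and 0.44, with a mean of 0.63 ± 0.18 and an adjusted p of 0.178. The other intracellular members were close to 0, with Clcn7, the lysosomal exchanger of osteoclasts, at 0.079 ± 0.30, Clcn6 at 0.074 ± 0.049 and Clcn4 at -0.19 ± 0.34. Clcn5, the endosomal exchanger gene mutated in Dent disease in humans, had -0.16 ± 0.11, from probes with means of -0.37 and 0.055. The median of the 7 genes was 0.074.

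The TRP channels are cation channels with varied triggers. Trpc7, which is gated by diacylglycerol, had -0.91, -0.59 and -1.03, with a mean of -0.84 ± 0.23 and an adjusted p of 0.161. Trpc1 had -0.49 ± 0.48 and Trpc5 had 0.33 ± 0.14, the highest of the 5 TRPC genes measured on all arrays. Trpc6, a podocyte channel gene, was measured on array 1 at 1.88 and array 3 at 0.14, and was not tested.

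Trpm4 and Trpm5 encode closely related channels opened by calcium, and their ratios lay on opposite sides. Trpm4 had 0.65, 0.62 and 0.72, with a mean of 0.66 ± 0.055 and an adjusted p of 0.164. Trpm5, known from taste cells, had -2.77, -3.63 and -0.51, with a mean of -2.30 ± 1.61 and an adjusted p of 0.214. The 3 arrays of Trpm4 lay close together, and for Trpm5 array 3 was far nearer to 0 than the others. Trpm7, a channel fused to a kinase, had -0.14 ± 0.55. Of the TRPV genes, Trpv3, a warmth-sensitive channel of skin, had 0.85, 0.56 and 0.71, with a mean of 0.71 ± 0.14 and an adjusted p of 0.165. The calcium-selective Trpv6 had 0.27 ± 0.045 and the osmotically gated Trpv4 had -0.13 ± 0.77.

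**Figure D3:**
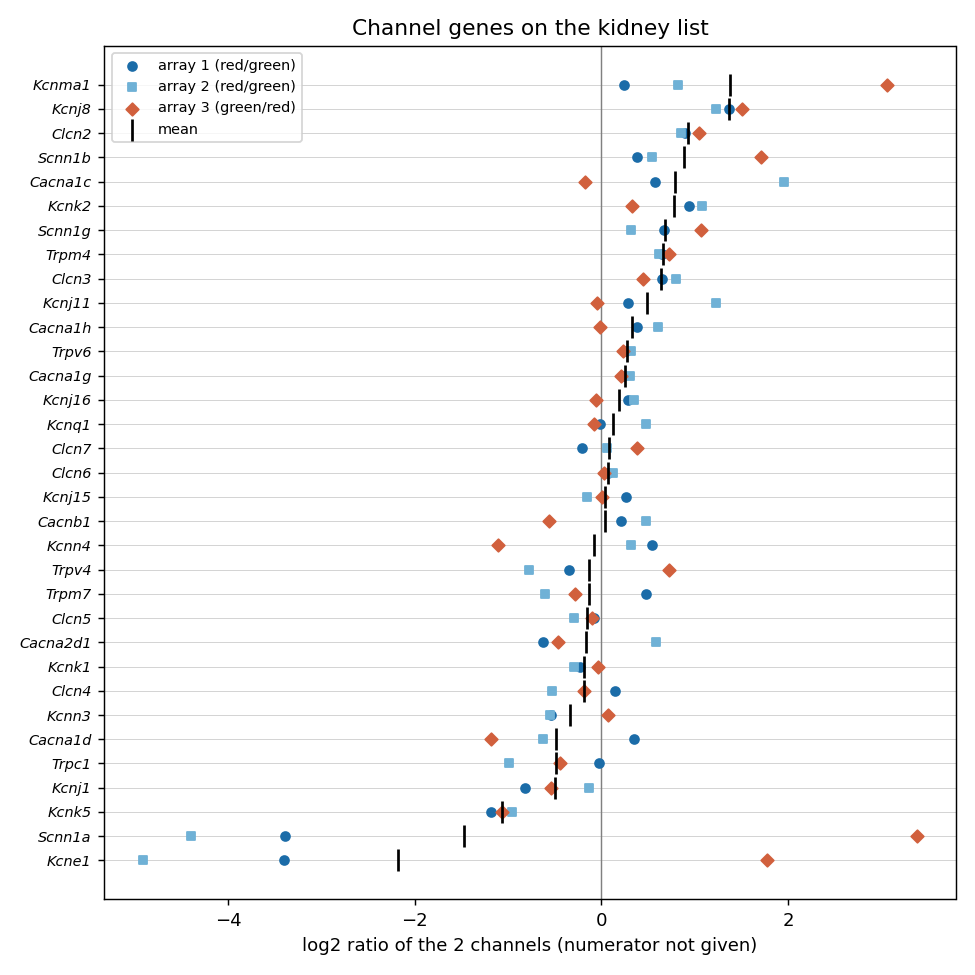
Log2 ratio on each array (horizontal axis, numerator not given) of the 33 measured genes of a list of channels known from kidney tubules and vessels, ordered by their mean. Symbols are arrays and black bars are means. On every array 11 of the 33 genes were positive and 5 negative, against 22.9% and 22.5% of all genes.

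The list of channels known from kidney tubules and vessels spanned the families and held 42 genes, of which 33 had a value on every array. Their means were positive for 19 and negative for 14, with a median of 0.074, against -0.0019 over all genes. At an unadjusted p under 0.05 there were 6 positive members, Kcnj8, Clcn2, Trpm4, Clcn3, Kcnk2 and Scnn1g, and 1 negative member, Kcnk5. The shares are 18.2% positive, against 9.89% of all genes, and 3.03% negative, against 9.69%, and the list was not tested as a set.

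A few channel genes had very large ratios with one sign on arrays 1 and 2 and the other on array 3. Spot intensities were not used, so whether these spots lay near background was not tested. The lowest ratio of any gene probe was -6.64 on each array. Kcnj5, a G protein-gated inward rectifier gene, had -5.44 and -4.65 on arrays 1 and 2 and 4.39 on array 3. Scnn1a had -3.39 and -4.39 on arrays 1 and 2 and 3.38 on array 3. Kcne1, which encodes a small partner of Kcnq1, had -3.40 and -4.91 on arrays 1 and 2 and 1.77 on array 3. These are the only channel genes with arrays 1 and 2 on one side, array 3 on the other and each at least 1 in size, a pattern chosen after the values were seen. They make 2.88% of the channel genes, against 0.883% of all genes (124 of 14047), and in 92 of those 124 (0.655% of all genes) arrays 1 and 2 were the negative ones, as in the 3 channel genes. The other 32 are 0.228% of all genes, and 0 channel genes lay on that side.

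Their means over the 3 arrays, -1.90 ± 5.46 for Kcnj5, -1.47 ± 4.23 for Scnn1a and -2.18 ± 3.50 for Kcne1, describe none of the arrays. In another fit a dye term was added for arrays 1 and 2 and subtracted for array 3. It was -4.72 for Kcnj5, -3.63 for Scnn1a and -2.96 for Kcne1. This term is the distance of each dye order from the midpoint between them, not the whole gap. With array 3 turned the other way the same genes had means of -4.83, -3.72 and -3.36. Kcna3, a potassium channel gene of T lymphocytes, had -5.17 and -4.65 on arrays 1 and 2 and 0.37 on array 3, so its mean of -3.15 ± 3.06, the lowest of all channel genes, rested on arrays 1 and 2. Kcnv1, a silent modifier subunit gene, had a mean of -1.13 ± 2.78, with array 3 at 1.56 and the others negative. Array 3 is the only array of its dye order, so the dye and that array cannot be told apart.

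**Figure D4:**
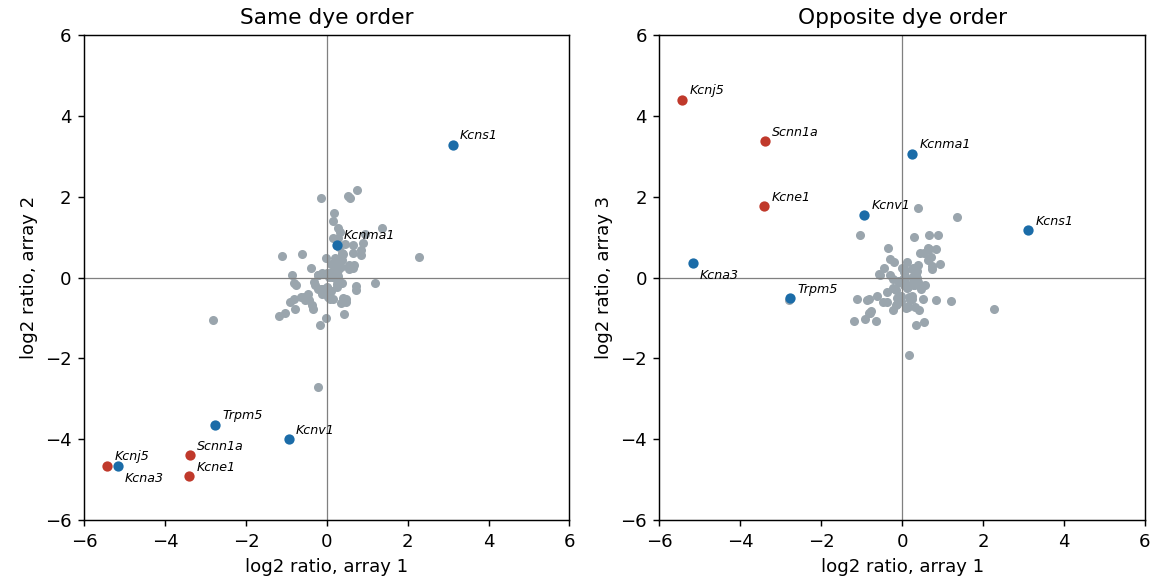
Log2 ratios of the 104 channel genes on array 2 (left) and array 3 (right) against array 1, numerator not given. Red points are Kcnj5, Scnn1a and Kcne1, which lie at strongly negative values on arrays 1 and 2 and positive values on array 3, and blue points are other genes with large ratios.

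Over the channel genes as a whole, agreement with array 3 was weaker than between arrays 1 and 2, as it was over all genes. Arrays 1 and 2 had the same sign for 73 of 104 channel genes, arrays 1 and 3 for 57 and arrays 2 and 3 for 58. Across channel genes the Spearman correlation of arrays 1 and 2 was 0.60, against 0.50 across all genes. Array 3 had 0.20 with array 1 and 0.10 with array 2, against 0.26 and 0.21 across all genes. Genes are not independent replicates, and each pair shares the tissues and the probes. With array 3 turned, 11 channel genes (10.6%) had an unadjusted p under 0.05 against 5.55% of all genes. With a dye term there were 20 (19.2%) against 21.3%.

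**Figure D5:**
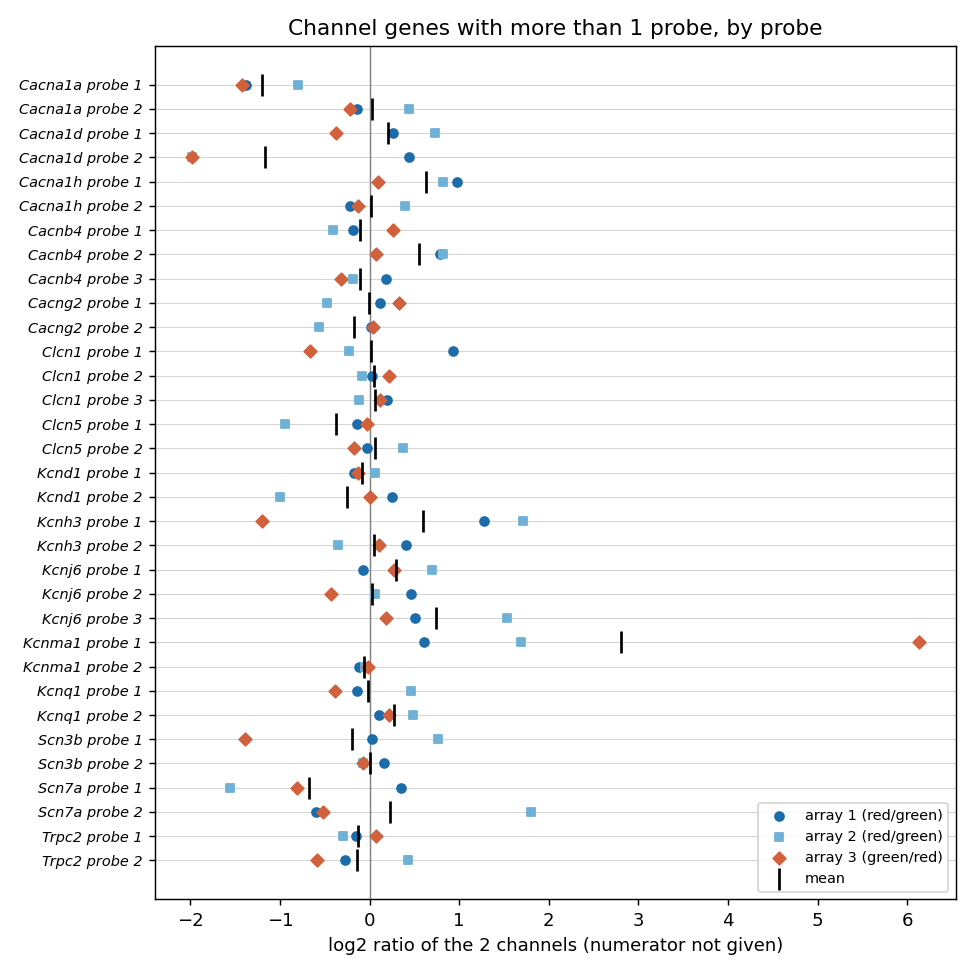
Log2 ratio on each array (horizontal axis, numerator not given) for probes with a value on every array. Shown are the 15 channel genes with more than 1 such probe. Symbols are arrays and black bars are means over arrays; probes of Kcnma1, Cacna1a and Cacna1d lie at different places.

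Of the 15 channel genes with more than 1 probe measured on every array, 8 had probes with means of opposite sign. These were Cacna1a, Cacna1d, Cacnb4, Clcn5, Kcnma1, Kcnq1, Scn3b and Scn7a. In several of them 1 probe mean was near 0, at 0.0021 for Scn3b, -0.020 for Kcnq1, 0.025 for Cacna1a, 0.055 for Clcn5 and -0.059 for Kcnma1. The share over all genes with more than 1 probe was not computed, so nothing about channel genes is read from this count. Most of the leading genes, among them Kcnj8, Clcn2, Kcnk5, Kcnk7, Kcns1 and Trpm5, had 1 probe, so no second probe was measured for them.

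Other ion channel, pore and junction genes outside these families were taken from a separate list. Of its 49 measured genes 32 had a positive and 17 a negative mean, with a median of 0.17, and 1 was positive (2.04%, against 9.89% of all genes) and 4 were negative (8.16%, against 9.69%) at an unadjusted p under 0.05. On the negative side Gja4, which encodes a gap junction protein of arterial endothelium, had -1.48, -1.80 and -1.30, with a mean of -1.53 ± 0.25 and an adjusted p of 0.149. Clic4, an intracellular chloride channel gene, had -0.82 ± 0.34 and Best1, a calcium-activated chloride channel gene, had -0.67 ± 0.25. On the positive side Tpcn1, an endolysosomal channel gene, had 1.08 ± 0.72, Lrrc8d, a subunit of the volume-regulated anion channel, had 0.41 ± 0.25 and Itpr2, a calcium release channel gene, had 0.40 ± 0.25.

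Since many channel genes are used in vessels, muscle and neurons, the ratios of markers of these and of other cells are given beside them. Over all genes tested, 22.9% were positive and 22.5% negative on every array. Endothelial markers were negative on every array for 6 of 6 genes, with means from -1.12 to -0.18. Of 10 muscle markers 6 were negative on every array and 1 positive, with means from -4.96 to 0.43. Of 9 measured neuron markers 3 were negative and 2 positive on every array, with means from Isl1 at -0.95 to Dcx at 1.40 and a median of -0.020. Renal stroma markers were positive on every array for 3 of 3 genes, with means from 1.00 to 1.56. Of 10 metanephric mesenchyme markers 3 were positive and 2 negative on every array, with means from Hoxa11 at -0.36 to Wt1 at 1.75 and a median of 0.12. Of 6 ureteric bud markers 5 were positive and 1 negative on every array, with means from Ret at -0.43 to Calb1 at 1.16 and a median of 0.44. Among 3 measured macrophage markers 2 were positive on every array, and among 4 erythroid markers 1 was negative on every array. Their part in the channel gene ratios was not tested. In ratios from mixed tissue, fewer cells of a type and less RNA per cell cannot be told apart, and a ratio does not show whether a gene was expressed above background in either tissue.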

How the data were processed

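RNA of both tissues was hybridised together on 3 Compugen mouse oligonucleotide arrays. Per the labels, spots were read with Imagene 5.5 and the authors normalized the log2 ratios by print-tip lowess (20% of the data at each point, control channel values under 10 set to 10) and between arrays. The deposited log2 ratios were used as given. Spot intensities were not used here. Precision is limited by there being 3 arrays.

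Probes with 1 gene symbol and a value on every array were averaged per symbol, which gave 14047 genes. The array with the opposite dye order was kept as deposited, because its Spearman correlation with both others was above 0 (0.26 and 0.21 across genes). A two-sided test of each mean against 0 used limma 3.58.1 (lmFit, eBayes; R 4.3.3), and p-values were adjusted over all genes by Benjamini-Hochberg; the same code was tested on simulated data. Values after ± are SDs over 3 arrays. Figures used Matplotlib 3.10.9 (Python 3.11.15).

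The channel genes, lists and tests were chosen with earlier results of these data known. Named genes are, per sign, the 12 with the smallest unadjusted p among those with 1 sign throughout, the kidney list, genes whose probes had opposite signs, the lowest and highest mean of each subfamily, and 3 other channel genes per sign. Others are named as examples, after their values were seen. Alternatives were centring, scaling, array 3 turned, a dye term, each array left out, the first probe, limited values, other variance estimates and values on 2 arrays.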

Additional observations from a re-analysis of the deposited data

How the results depend on the processing

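At an adjusted p under 0.05 the count stayed at 0 channel genes and 0 genes by limma under all 12 alternatives, which with 3 arrays says little about stability. At an unadjusted p under 0.05 there were 22 channel genes (12 positive, 10 negative) and 2750 genes. With array 3 turned there were 11 channel genes, 4 of them positive, and 779 genes. With an array left out there were 8 to 21 channel genes, 4 to 8 positive and 4 to 13 negative, and 1156 to 2943 genes. All other alternatives gave 15 to 22 channel genes. The cause of these differences was not tested, and fewer arrays enter when 1 is left out.

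Among the genes named by the rules above, and not as examples, means that changed sign with array 3 turned were those of Scnn1g (-0.027), Scnn1b (-0.26), Kcnma1 (-0.67), Kcnn4 (0.66), Clcn7 (-0.18), Trpm7 (0.050), Cacna1d (0.30), Cacna2d1 (0.14), Cacna2d3 (-0.036), Scn3b (0.39), Scn7a (0.22) and Tpcn1 (-0.059). Other channel genes also changed sign with array 3 turned, such as Kcnj4 (-0.044 to 1.24) and Kcnmb2 (0.31 to -0.032). Of the genes named by rule, Trpv4 (0.083) and Cacnb1 (-0.11) changed sign with a dye term. With the first probe Kcnq1 (-0.020), Cacna1d (0.21) and Cacnb4 (-0.11) did so. Other channel genes also changed sign with a dye term, such as Kcnip2 (-0.29 to 0.049) and Kcnab1 (0.13 to -0.083). The ranges that follow are likewise limited to genes named by rule. With an array left out, means ranged from -0.072 to 0.13 for Kcnj15, -0.54 to 0.062 for Cacna2d1, -0.18 to 0.34 for Cacnb1, -0.14 to 1.39 for Cacng4, -0.050 to 0.23 for Kcnq1, -0.44 to 0.097 for Trpm7, -0.56 to 0.19 for Trpv4, -0.0050 to 1.27 for Scn10a, -0.39 to 0.43 for Kcnn4, -0.072 to 0.22 for Clcn7 and -0.32 to 0.22 for Scn3b.

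No paired analysis was possible because no second group of arrays shares the replicate numbers; the ratio within each array already pairs the tissues.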
